A study of Rattus norvegicus with 2 samples.

Results

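The genes described here make, package, retrieve, break down or sense acetylcholine: Slc5a7, Chat, Slc18a3, Ache, the nicotinic receptor subunits Chrna3, Chrnb3 and Chrnb4, and the muscarinic receptors Chrm1, Chrm2 and Chrm3. They were chosen by gene name. Earlier results of these data were known when the members and the gene lists used below were chosen. Their shares set beside those of all genes are therefore descriptions. The 10 genes had 11 of the 30367 non-control probes on the array, and 9 of the 10 were well above background on both arrays, as were 14178 named genes in all. The tissue was the paraventricular nucleus of the hypothalamus, from male Sprague Dawley offspring aged 12 weeks, and total RNA was labelled after low-input amplification. Mothers of the control offspring received vehicle. Mothers of the other group received dexamethasone, a synthetic glucocorticoid, at 200 µg/kg during the third trimester. The exposure was therefore prenatal and the RNA adult. There was 1 array per group, both on the same slide, so that the effect of position on the slide cannot be told apart from that of group. The labels do not say how many animals contributed to each array. The series title concerns programmed hypertension and the hypothalamic angiotensin receptor, and the comparison asks how expression in the nucleus differed after the prenatal exposure.

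Acetylcholine is made from choline by choline acetyltransferase (Chat), loaded into vesicles by the vesicular transporter (Slc18a3), and hydrolysed in the synaptic cleft by acetylcholinesterase (Ache). The choline that is released returns to the terminal through the high-affinity transporter Slc5a7, a rate-limiting step of synthesis. Nicotinic receptors are ion channels built of several subunits, whereas muscarinic receptors are G-protein-coupled. In the hypothalamus, acetylcholine is a classical stimulus of vasopressin release. Outside it, the ventral part of the medial habenula, a small nucleus on the dorsal surface of the thalamus, holds a dense group of cholinergic neurons and is rich in the subunits encoded by Chrna3 and Chrnb4.

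Each member was read by probes of 60 bases with a single spot each, so what a value stands for depends on the stretch of transcript the probe pairs with. The sequences below are those of the array files. They are shown for the pair of genes that share the choline acetyltransferase locus, for the neighbouring subunit genes that differed in size of change, for Ache, for Chrm1, and for the receptor gene whose probes gave opposite signs. For Slc5a7 bases 1 to 30 of the probe are given. The only capitals mark the first ATG in the upstream Chrm2 probe, at base 16 of that probe, which is the start codon of the receptor.
Slc5a7 probe: atcaagcttgtagctggaacgatatgttaa
Chat probe: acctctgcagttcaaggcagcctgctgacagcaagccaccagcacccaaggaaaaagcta
Slc18a3 probe: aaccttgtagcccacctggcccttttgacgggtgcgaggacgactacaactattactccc
Ache probe: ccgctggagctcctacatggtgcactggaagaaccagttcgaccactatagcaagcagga
Chrm1 probe: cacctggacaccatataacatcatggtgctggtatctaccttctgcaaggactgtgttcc
Chrna3 probe: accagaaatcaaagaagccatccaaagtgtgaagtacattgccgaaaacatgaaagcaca
Chrnb4 probe: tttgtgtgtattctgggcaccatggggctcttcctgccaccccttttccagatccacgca
Chrm2 upstream probe: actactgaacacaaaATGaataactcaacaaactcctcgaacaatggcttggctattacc
Chrm2 downstream probe: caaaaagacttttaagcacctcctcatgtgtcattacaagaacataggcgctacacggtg
The Ache probe lies in the part of the transcript that encodes the C-terminal tail of the synaptic (T) splice form, so its values are those of that form. The Chrm2 probes start at transcript bases 436 and 1791. The share of G and C ran from 35.0% (Chrm3) to 55.0% (Chat, Slc18a3, Ache and Chrnb4) over the 11 probes. It was 41.7% and 40.0% for the probes with the largest downward differences, those of Slc5a7 and Chrna3.

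Probes well above background made up 79.5% on the control array and 78.2% on the dexamethasone array. Differences are dexamethasone minus control on the log2 scale, after each array was scaled to its 75th percentile (1406 and 1482, as linear signal). Over all measured genes their median was 0.0083. With 1 array per group there is no test and no p-value. A size rule of 2-fold is used in its place, and 2.38% of measured genes were at least 2-fold lower and 3.37% at least 2-fold higher. Measured genes are those whose names matched a RefSeq table, a choice made after the shares over all 20148 measured names had been seen; over all names, 3.23% were at least 2-fold lower and 2.72% at least 2-fold higher. That choice moves the background and the ranks, and not the members' own differences. Errors given with a signal are the error estimates of the scanner software for that spot, not a spread between animals. Of the defining genes of the nucleus, Avp (3464 against 970.3, control first), Oxt (1455 against 587) and Crh (230.2 against 636) were measured on both arrays. The developmental factor Sim1 was barely above background (14.1 against 12.0), and Otp was above it in the dexamethasone array alone.

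The 9 members measured on both arrays were lower in the dexamethasone array when each gene was read by its brightest probe, beside 48.8% of measured genes. Chrm1 is outside this count because it was above background in the dexamethasone array alone, where it was higher, and Chrm2 was at 0.37 on its dimmer probe. At the size rule, 2 of the 9 (22.2%, against 2.38% of measured genes) were at least 2-fold lower. None was at least 2-fold higher (against 3.37%). With normexp background correction, which models the background and adds an offset, the same count was 2, beside 0.917% of measured genes at least 2-fold lower and 2% at least 2-fold higher. The median over the 9 was -0.85, and -0.38 both with normexp and without background correction. At 1.5-fold, 5 of 9 were lower (55.6%, against 7.53% of measured genes) and 0 higher (against 7.29%). With normexp, run at 1.5-fold after seeing the data, 3 of 9 were lower (against 4.16%) and 0 higher (against 4.24%), since Chat and Chrnb3 no longer passed. The members differed widely among themselves: the transporter Slc5a7 and the subunit Chrna3 were more than 3-fold lower, Chat, Slc18a3 and Chrnb3 a little under 2-fold lower, Ache 1.30-fold lower, and Chrnb4, Chrm2 and Chrm3 within the software error of a difference. In tissue RNA, fewer cells of a type and less RNA per cell cannot be told apart.

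**Figure D1:**
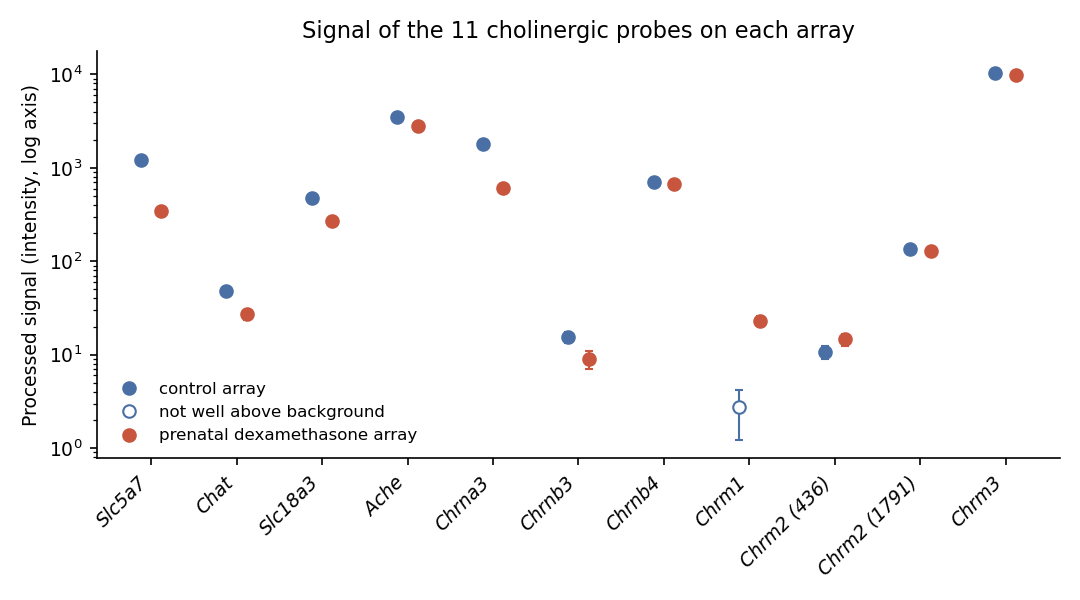
Processed signal (intensity, log axis) of each of the 11 cholinergic probes on the control (blue) and prenatal dexamethasone (red) arrays. Bars are the scanner software's error for the single spot, the open point was not well above background, and numbers beside Chrm2 are the transcript base at which each probe starts. The widest downward gaps are those of Slc5a7 (1216 against 341) and Chrna3 (1812 against 608).

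The genes of choline uptake, synthesis and vesicular loading were lower together. Slc5a7 (rn4 chr9:165495-165554) had a signal of 1216 ± 122 on the control array, against 341 ± 34.2 after dexamethasone. It was 3.76-fold lower (-1.91), at rank 36 from the lowest of 14178 genes, or 113 of 20148 with all names kept. Chat (rn4 chr16:7913067-7913126), which makes acetylcholine, had signals of 48.3 ± 5.11 and 27.0 ± 3.34 and was 1.88-fold lower (-0.91). Slc18a3 (rn4 chr16:7970157-7970216), the vesicular transporter, had signals of 479.6 ± 48.0 and 273 ± 27.4 and was 1.85-fold lower (-0.89). In all 3 the control array was the higher one. The gene of the vesicular transporter lies inside the Chat gene, in the order of RefSeq genes, and their probes are 57.0 kb apart in rn4. The differences of these nested genes differed from each other by less than the software error of a difference (0.23 for Chat and 0.20 for Slc18a3).

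How firm each of these 3 values is depends on its signal. Over probes that the array carries 10 times, the SD of the array difference between spots had a median of 0.045 at the signal of Slc5a7, 0.055 at that of Slc18a3 and 0.15 at that of Chat. Among probes whose mean signal lay no more than 0.5 log2 from the Slc5a7 probe, a window set after values were seen, 13 of 2436 (0.534%) were at least as much lower. The same count was 87 of 2294 (3.79%) for Slc18a3 and 154 of 2021 (7.62%) for Chat. With normexp, Slc5a7 was at -1.74 and Slc18a3 at -0.78, but Chat at -0.43. The dim Chat signal was thus the only 1 of the 3 whose difference was more than halved by a change in background handling.

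Ache, the enzyme that ends the signal, was modestly lower. Its signals were 3464 ± 346 and 2804 ± 280.4, a difference of -0.38 (1.30-fold lower), and its probe has no genome position in the files. The difference was larger than the spot SD at this signal (0.034) and the software error of a difference (0.20). Neither measure holds the spread between animals, and 145 of 1914 probes of like signal (7.58%) were at least as much lower. Bche, the related butyrylcholinesterase, was at -0.35 (280 against 231). Of the proteins that anchor the enzyme, Prima1, its membrane anchor in brain, was at -0.51 on its brighter probe and -0.07 on the other, and Colq, its collagen tail, at -0.27 and -1.20. On their brighter or only probe these 3 genes were lower by less than 2-fold, while the dimmer Colq probe was past 2-fold.

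The nicotinic subunits differed in size. Chrna3 (rn4 chr8:58572596-58572655), a ligand-binding subunit of ganglia and habenula, had signals of 1812 ± 181 and 608 ± 60.8. It was 3.14-fold lower (-1.65), at rank 74 from the lowest, or 187 with all names kept, and 14 of 2351 probes of like signal (0.595%) were at least as much lower. Chrnb4 (rn4 chr8:58586979-58587038), the subunit it most often pairs with, had signals of 711 ± 71.1 and 671 ± 67.1 and a difference of -0.16. The spot SD was 0.042 at the signal of Chrna3 and 0.045 at that of Chrnb4, and the software error of a difference was 0.20 for both. The gap between these differences was therefore larger than both error measures, although neither holds the spread between animals. Chrnb3 (rn4 chr16:69029099-69029158), an accessory subunit, was dim, at 15.4 ± 2.13 and 9.02 ± 1.90. Its difference of -0.85 stood beside a spot SD of 0.35 at that signal, and with normexp it was at -0.18.

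Chrna3 and Chrnb4 are neighbours in 1 locus, and Chrna5, an accessory subunit of the same receptors, adjoins Chrna3 on its other side. The Chrna3 and Chrnb4 probes are 14.3 kb apart in rn4. The 3 genes differed in 3 ways: Chrna3 was lower, Chrnb4 near equality, and Chrna5 (rn4 chr8:58566044-58566103) 2.45-fold higher, with signals of 18.2 ± 2.23 and 47.1 ± 4.92. The spot SD at the signal of Chrna5 was 0.19. With normexp Chrna5 was at 0.45, so that its 2-fold call ended, while its sign stayed.

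**Figure D2:**
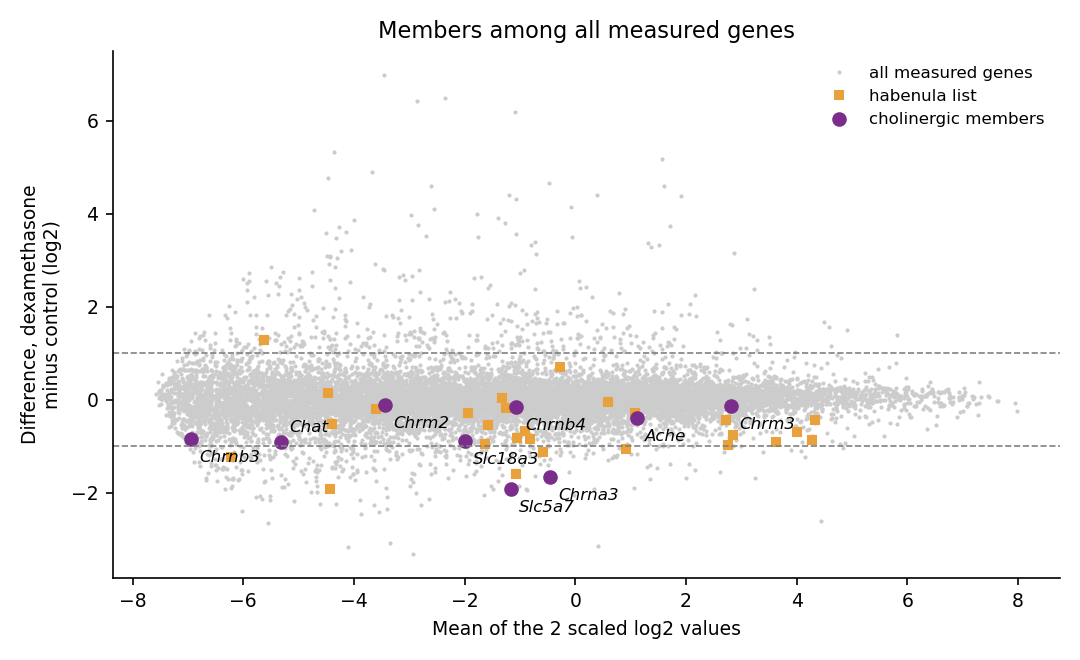
Difference between the arrays (log2, dexamethasone minus control) against the mean of the 2 scaled log2 values, for 14178 measured genes (grey), the habenula list (orange squares) and the 9 measured members (purple). Dashed lines mark 2-fold. Slc5a7 (-1.91) and Chrna3 (-1.65) lie below the lower line in the middle of the signal range, where few grey points do, and the other 7 members lie between the line and 0.

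Of the members, the muscarinic receptors measured on both arrays were close to equality on their brightest probe. Chrm4, a muscarinic receptor outside the members, was higher, at 2.08. Chrm3 (rn4 chr17:71218386-71218445), which couples to phospholipase C, had signals of 10293 ± 1029 and 9884 ± 988, a difference of -0.13. That was larger than the spot SD at its signal (0.029) and smaller than the software error of a difference (0.20). Chrm2 (rn4 chr4:63916605-63916664), an inhibitory receptor often found on cholinergic terminals, had signals of 134 ± 13.5 and 130.3 ± 13.2 on its downstream probe, a difference of -0.12. Its upstream probe (rn4 chr4:63915250-63915309) gave 10.7 ± 1.76 and 14.6 ± 2.16, a difference of 0.37, with a spot SD of 0.31 at that signal. The probes of Chrm2 thus disagreed in sign, and their mean difference was 0.13.

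Chrm1 (rn4 chr1:211352865-211352924), the main muscarinic receptor of cortex and hippocampus, ran against the other members. It was not well above background in the control array (signal 2.73 ± 1.5) and was above it in the dexamethasone array (23.2 ± 2.91). After scaling, Chrm1 in the dexamethasone array was 3.76-fold the lowest signal well above background in the control array. This is not a lower limit on its difference. With normexp its difference was 0.43 and without background correction 0.30, so the size of this excess depended on how background was handled.

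**Figure D3:**
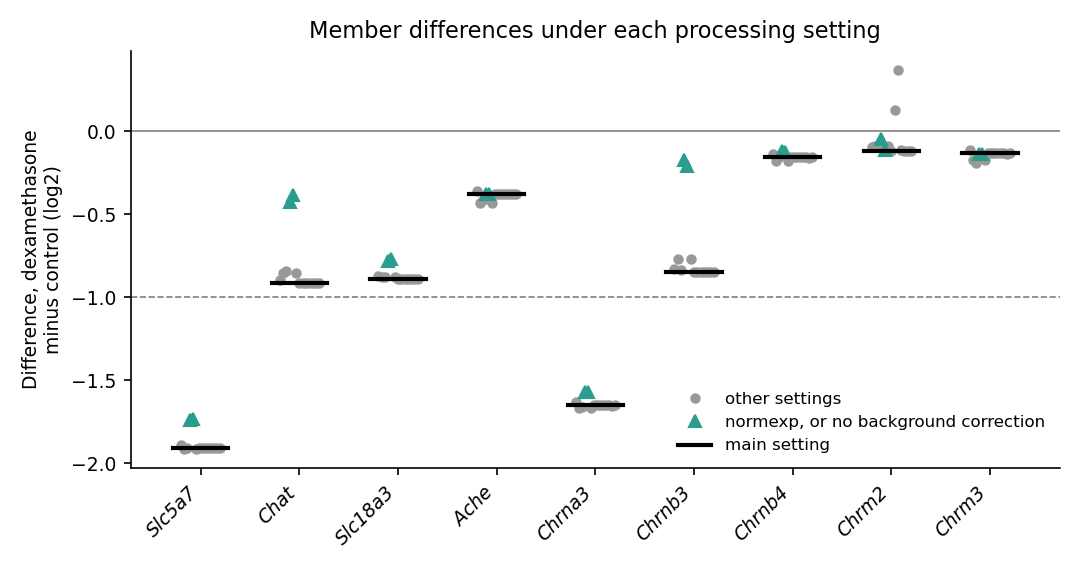
Difference of each measured member (log2, dexamethasone minus control) with the scaling used in the text (black bar), with normexp or no background correction (green triangles) and with the other settings (grey points). The dashed line marks 2-fold lower. Slc5a7 (-1.92 to -1.73) and Chrna3 (-1.67 to -1.57) stay below it throughout, Chat and Chrnb3 move towards 0 with the green settings, and Chrm2 alone crosses 0.

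Other genes of the cholinergic system did not share a direction. Of 43 listed, 34 were measured, 17 were lower and 17 higher, and their median was -0.012. In the dexamethasone array 1 of 34 was at least 2-fold lower (2.94%, against 2.38% of measured genes) and 3 were at least 2-fold higher (8.82%, against 3.37%). Chrm4, the inhibitory muscarinic receptor of striatal projection neurons, was the highest at 2.08 (159 against 709), and was at 1.76 with normexp. Kcnq5, a channel of the muscarine-sensitive M-current, was at 1.24 (30.3 against 75.4; 0.61 with normexp), and its relative Kcnq3 was at 0.44. The third gene past 2-fold upward was Chrna5. Agrn, the agrin gene, whose product clusters receptors at the muscle endplate, was at -1.09 on its brighter probe (30487 against 15149.9) and -0.51 on the other.

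Among the remaining nicotinic subunits, those of the main brain receptor were lower. Chrna4, its ligand-binding subunit, was at -0.92 (2289.7 against 1275), and Chrnb2, its partner, at -0.63 (61.7 against 42.0; -0.25 with normexp). Chrna6, a subunit of dopaminergic terminals, was at 0.93 (17.3 against 34.7; 0.19 with normexp), and Chrna7, the homomeric receptor, at 0.52 on its brighter probe and 0.02 on the other. The muscle subunits Chrna1 and Chrng were at -0.79 and 0.89. Neither array had Chrna2 or Chrm5 well above background, and Chrna9 and Chrna10 were above it in the control array alone. Both were dim. After scaling, Chrna10 was 1.87-fold lower (unscaled signals 14.9 against 8.39) and Chrna9 1.54-fold lower (7.09 against 4.86). Chrna9 in the control array was only 1.04-fold the lowest signal well above background in the dexamethasone array.

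By role, in groups drawn after values were seen, genes that supply choline for membranes, and proteins that fold or restrain nicotinic receptors, lay within 2-fold on every measured probe. Of 11 measured genes grouped as general choline uptake and phosphorylation, 6 were lower. The group also counted Acly (-0.17), which does not act on choline. By brightest probe it ranged from -0.65 for Chkb, a choline kinase, to 0.67 for Slc44a2, a choline transporter-like protein. The other Slc44a2 probe was at 0.06. Of 6 receptor chaperones and prototoxins 1 was lower, with a range of -0.17 (Lypd1) to 0.28 (Ric3). Slc5a7 thus stood apart in size from the general choline transporters measured beside it, Slc44a1 (0.12), Slc44a2, Slc44a3 (-0.28) and Slc44a4 (0.26). That contrast is a description of these arrays.

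Genes of the habenula were mostly lower in the same array. Of 33 listed, 28 were on the array and 27 were measured. Of the 27, 23 were lower, beside 48.8% of measured genes, with a median of -0.67. At the size rule 5 were at least 2-fold lower (18.5%, against 2.38% of measured genes) and 1 at least 2-fold higher (3.70%, against 3.37%). Summed over the 27, the signal was 178441 (control) and 116943 (dexamethasone). The largest parts of the control sum were Slc17a6 (36830), Gap43 (32995), Calb2 (28825) and Tcf7l2 (23665). Calb2 and Tcf7l2 are also on the thalamus list. Pou4f1, the transcription factor that specifies habenular neurons, was at -1.91 (127 against 35.5), and Gpr151, an orphan receptor of habenular axons, at -1.58 (1156 against 407). The other genes past 2-fold downward, named after their values were seen, were Lrrc55 (-1.22), Irx2 (-1.12) and Irx1 (-1.06). Lrrc55 was dim (28.6 against 13.0), and its value with normexp is not given here. Irx2 was at -0.53 on its other probe, short of 2-fold. Chrna5 was the gene past 2-fold upward. In the 24 measured genes, a subset made after values were seen, that are in neither the thalamus list nor the cholinergic list, 21 were lower and the median was -0.61. No gene of this list was below background on both arrays.

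Thalamic genes were lower as well and telencephalic genes higher. Of 17 measured thalamic genes 16 were lower, beside 48.8% of measured genes. At least 2-fold lower were 6 (35.3%, against 2.38%), led by Grid2ip (-1.63), Gbx2 (-1.19) and Nexn (-1.11). The median of the 17 was -0.95. Their summed signal was 188525 (control) and 115365 (dexamethasone). Of 18 measured genes of cortex, hippocampus and striatum 17 were higher and 13 at least 2-fold higher (72.2%, against 3.37%), with a median of 2.31, among them Itpka (5.19) and Neurod2 (4.66). Their summed signal was 8254 (control) and 81703 (dexamethasone). The part of these regional differences in those of Slc5a7, Chrna3, Chrm1 and Chrm4 was not tested.

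Markers of other cholinergic neurons were also examined, with no test of a difference from Slc5a7, Chat and Slc18a3. Of 13 genes tied to basal forebrain and striatal cholinergic neurons, 7 were higher and 6 lower, with a median of 0.13. At the size rule 2 were at least 2-fold higher (15.4%, against 3.37% of measured genes) and 1 lower (7.69%, against 2.38%). Slc10a4, a vesicular protein of cholinergic terminals, was at 1.43 (27.0 against 76.6). Lhx8, the factor that specifies them, was at 0.73, and Gbx2, also on the thalamus list, at -1.19. Of brainstem and spinal motor neuron genes, neither array had Mnx1, Phox2a or Tbx20 well above background. Of the 6 that were measured 5 were lower, beside 48.8% of measured genes, with Isl1 at -0.75, Lhx4 at -0.63 and Calca at 0.45. The median of the 6 was -0.14, and no gene among them passed 2-fold. The synthesis genes were thus lower while the list of 13 was split, with Slc10a4 higher and Isl1, which is also on it, lower. Slc10a4 was dim, and its value with normexp is not given here.

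**Figure D4:**
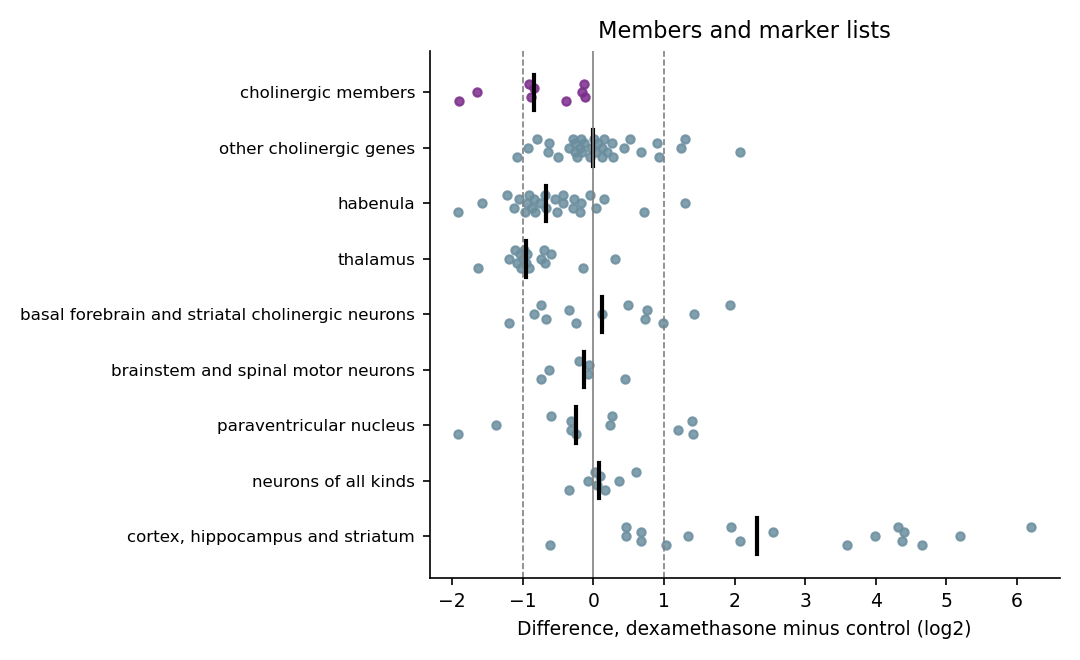
Difference between the arrays (log2, dexamethasone minus control) of each measured gene of 9 lists, with the list median as a black bar and dashed lines at 2-fold. The members (purple, median -0.85), the habenula list (-0.67) and the thalamus list (-0.95) lie left of 0, the other cholinergic genes (-0.012) around it, and the cortex, hippocampus and striatum list (2.31) to the right.

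Lists of broad cell classes were near equality. Medians were 0.08 for neurons of all kinds, 0.25 for astrocytes, 0.23 for oligodendrocytes, 0.07 for microglia, -0.03 for blood vessel and 0.27 for choroid plexus and ependyma, and no gene of these lists passed 2-fold on its brightest probe. Gfap, the astrocyte filament gene, was at 0.73 on its brightest probe and 1.14 on another. Blood genes were higher: Hbb, Hbb-b1 and Alas2 lay between 1.45 and 1.57, with Hbb and Hbb-b1 near-identical copies whose values cannot be told apart. The paraventricular list had 6 genes lower and 5 higher of 11 measured, with a median of -0.24, led by Avp (-1.91), Sst (1.41) and Crh (1.39).

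The genes nearest to the 3 members of largest difference were sought by distance over the scaled log2 values of both arrays, among 14156 named genes. Nearest to Slc5a7 were Eml5 (distance 0.22), Gpr151 (0.26) and Fam227a (0.30), with differences of -1.85, -1.58 and -1.62. Nearest to Chrna3 were Nrbp2 (0.19), Mlnr (0.27) and Ces5a (0.29), with differences of -1.40, -1.27 and -1.29. Nearest to Chat were Lce1f, Rax and Syt6, each at a distance of 0.05 to 0.06 and a difference of -0.84. Gpr151 was the only 1 of these 9 that is also on the habenula list. With 2 arrays such a likeness is one of level and difference, and nothing more.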

How the data were processed

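Agilent 1-colour arrays were compared, 1 per group. Per the file headers, each deposited file gives linear spot intensity from Feature Extraction 10.7.1.1 (9.5.1.1 in the submitters' processing notes), background-subtracted by the software, with probe positions on rn4. The deposited value table holds a further intensity with a median of 149.9 in both columns; its scale is linear and its direction that of the scanner files (correlation of differences 0.996), but how it was centred is not stated. Spots with outlier marks were left out (267 and 249), log2 values were averaged per probe, and each array's 75th percentile was subtracted. A gene took its brightest probe well above background on both arrays. Genes are names matched to a RefSeq table (GRCr8, names and gene order only): 18006 probes by accession, 2654 by symbol, 559 by older symbol. A further 9148 probes were left out of gene counts; this was decided after values were seen, and keeping all names was added as an alternative. A probe with repeated spots was well above background where no fewer of its spots were above it than below, also set after values were seen. The arithmetic of scaling and difference was checked on simulated data. R 4.3.3, limma 3.58.1 and Python 3.11.15 were used.

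Members and lists were chosen with earlier results of these data known. Named were every member, the 8 largest differences among other cholinergic genes, the 3 largest of each marker list (broad cell classes are given by medians, and some genes are not reported here), and the 3 genes nearest to each of 3 members; 13 other settings were run, and 2 were added after seeing the data. Genes named beyond this, to complete a group or a count, were picked with their values known. The number of arrays limits the precision.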

Additional observations from a re-analysis of the deposited data

How the results depend on the processing

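Over 13 alternatives the count of members at least 2-fold lower stayed at 2, except with a 1.5-fold rule (5). The count at least 2-fold higher was 0, except without a filter on dim probes (1, Chrm1). The members' median was -0.38 with normexp, -0.38 without background correction, -0.61 without the filter and -0.38 for bright genes alone, where 5 members were left. For other cholinergic genes, the count at least 2-fold higher was 1 with normexp, 1 without background correction, 0 for bright genes alone and 6 at 1.5-fold, and the count lower was 0 with the mean over probes and 5 at 1.5-fold. The habenula median was -0.47 with normexp, -0.49 without background correction and -0.55 with the dimmest probe. Slc5a7 (-1.92 to -1.73) and Chrna3 (-1.67 to -1.57) kept their sign and their side of 2-fold under all 13. Each has a single probe, so settings that choose or average probes, filter genes or change the size rule could not move their values. Only settings of scaling, normalization, background and spot handling could. Chrm2 was at 0.13 with the mean over probes and 0.37 with its dimmest probe. The median of all measured genes moved between -0.02 and 0.03 over the alternatives. Keeping all probe names, an alternative chosen after seeing the data, left each member and list value as it was and moved the shares of all genes (2.38% lower and 3.37% higher) to 3.23% and 2.72%. No paired analysis was possible because there was 1 array per group.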
